A study of Mus musculus with 11 samples.

Results

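The genes described here are 37 genes that charge transfer RNA or supply amino acids, taken from the 54232 gene identifiers counted in isolated mouse hepatocytes. The rule names them by function: 20 cytosolic aminoacyl-tRNA synthetases, 6 enzymes of serine synthesis and mitochondrial folate metabolism, 4 enzymes of asparagine, proline and alanine synthesis, 2 enzymes of transsulfuration and 5 amino acid transporters. RNA-Seq was performed on 11 libraries of hepatocytes purified on Percoll from adult male C57BL/6 mice, and the question for these genes is how their transcripts differed with loss of *Xbp1* and with diet. *Xbp1* fl/fl controls carry floxed *Xbp1*, and *Xbp1* LKO mice carry in addition Cre driven by the albumin promoter, which removes exon 2 in hepatocytes. The diet was either standard chow or HFS (high fat sugar, a Western diet with fructose and glucose in the drinking water), given for up to 6 weeks. The 4 groups held 3 *Xbp1* fl/fl chow libraries, 2 *Xbp1* LKO chow libraries, 3 *Xbp1* fl/fl HFS libraries and 3 *Xbp1* LKO HFS libraries, each from 1 mouse on chow and from a pool of 2 mice on HFS.

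An aminoacyl-tRNA synthetase joins 1 amino acid to its tRNA, so that each codon is read as the right residue. When a tRNA stays uncharged, or when unfolded protein builds up in the ER, kinases phosphorylate eIF2α, most translation slows and the transcription factor ATF4 is made. ATF4 is known to switch on amino acid transporters, *Asns*, the serine pathway and many synthetases, often through a site called the CARE. XBP1 is the transcription factor of another arm of the unfolded protein response, and in liver it is known for secretory and lipid genes.

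Of the 37 genes, 26 had a promoter in the RefSeq table (GRCm38.p6, 250 bases before to 50 after the start). The CARE core was searched as TGATGNAA on both strands, and it was found in 8 of those 26 genes (30.8%) against 4.51% of the 27025 genes in the table. The carriers were 5 synthetases (*Aars*, *Gars*, *Iars*, *Tars* and *Yars*) and 3 other genes (*Asns*, *Pycr1* and *Slc7a11*). The letters GACGTG, part of a site bound by XBP1 and ATF6, were found on either strand in 1 of the 26 genes, *Eprs* (3.85%), against 7.15% of all genes. A match is a run of letters and not a bound site. The 4 promoters below are shown because they carry the same letters and belong to genes with different values: *Asns*, which was higher in *Xbp1* LKO hepatocytes on both diets, *Tars*, which was lower on chow, and *Slc7a11* and *Aars*, which hold 2 matches each and did not pass edgeR's test. Capitals mark the match to TGATGNAA or to its reverse complement TTNCATCA.
Asns promoter, chr6:7693160-7693459, minus strand: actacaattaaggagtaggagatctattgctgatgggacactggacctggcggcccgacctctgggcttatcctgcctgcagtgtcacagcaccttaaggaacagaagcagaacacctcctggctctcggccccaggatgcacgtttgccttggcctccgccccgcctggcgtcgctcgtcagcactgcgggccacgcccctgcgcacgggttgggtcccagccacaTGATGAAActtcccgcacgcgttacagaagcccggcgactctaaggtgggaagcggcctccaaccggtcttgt
Slc7a11 promoter, chr3:50443564-50443863, minus strand: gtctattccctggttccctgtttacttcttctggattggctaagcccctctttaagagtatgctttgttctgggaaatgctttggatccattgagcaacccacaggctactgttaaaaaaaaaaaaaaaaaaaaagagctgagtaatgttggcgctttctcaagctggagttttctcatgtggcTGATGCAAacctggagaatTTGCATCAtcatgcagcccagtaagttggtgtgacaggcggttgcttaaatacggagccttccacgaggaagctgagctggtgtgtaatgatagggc
Tars promoter, chr15:11399609-11399908, minus strand: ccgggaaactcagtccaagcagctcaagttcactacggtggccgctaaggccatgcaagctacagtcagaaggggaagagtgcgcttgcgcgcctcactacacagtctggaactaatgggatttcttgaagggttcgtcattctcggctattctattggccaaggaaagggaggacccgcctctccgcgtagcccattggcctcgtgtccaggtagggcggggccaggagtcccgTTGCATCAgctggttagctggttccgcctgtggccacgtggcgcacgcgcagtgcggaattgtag
Aars promoter, chr8:111033592-111033891, plus strand: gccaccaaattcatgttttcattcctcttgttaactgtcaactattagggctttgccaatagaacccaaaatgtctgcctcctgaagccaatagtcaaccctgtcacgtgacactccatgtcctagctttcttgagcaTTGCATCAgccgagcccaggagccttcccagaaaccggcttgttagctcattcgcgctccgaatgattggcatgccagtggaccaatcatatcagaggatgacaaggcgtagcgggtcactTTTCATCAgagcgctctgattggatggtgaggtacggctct
The match begins 23 bases before the annotated start in *Asns*, 66 and 47 bases before it in *Slc7a11*, and 15 bases before it in *Tars*. In *Aars* it begins 112 bases before the start and again 9 bases after it. No such letters were found in the windows of *Psat1*, *Mthfd2*, *Slc7a1* and *Slc3a2*, and *Slc7a5* had no entry.

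Total counts were 19191032 to 23888401 per library. The targeted gene, *Xbp1*, was at 194, 200 and 221 CPM (counts scaled to the library's TMM-adjusted total) in *Xbp1* fl/fl chow libraries and at 95.7 and 128 in *Xbp1* LKO chow libraries. On HFS it was at 301, 295 and 242 CPM in *Xbp1* fl/fl and at 117, 97.3 and 135 in *Xbp1* LKO libraries, so the libraries of each genotype did not overlap. These counts cover the whole gene, of which exon 2 is a part. All 12 hepatocyte markers were detected, and their sum was 139795 to 177124 CPM in *Xbp1* fl/fl chow, 43451 to 79753 in *Xbp1* LKO chow, 120736 to 144244 in *Xbp1* fl/fl HFS and 63799 to 95852 in *Xbp1* LKO HFS libraries. The 10 macrophage markers summed to 16.5 to 82.0 CPM, the 10 endothelial to 29.1 to 159, the 10 stellate to 8.96 to 61.2 and the 8 cholangiocyte to 22.1 to 41.4 over all libraries, and no marker was at 0 in every library. Between genotypes all 12 hepatocyte markers had a negative log2 fold change on both diets, with 3 called lower on chow and 2 on HFS. Of the 4 cholangiocyte markers tested 2 were called lower on chow and 1 on HFS. These 4 went both ways, with 1 positive and 3 negative on chow and 2 of each sign on HFS. On chow all 10 endothelial and all 8 tested stellate markers were negative, 9 and 4 of them at an unadjusted p under 0.05. Of the 10 macrophage markers 9 were negative on chow, with 0 at that level. On HFS all 10 macrophage markers were positive and all 10 endothelial markers negative, 1 and 0 of them at that level. Of the 8 stellate markers 6 were positive and 2 negative on HFS, with 1 at that level. None of these endothelial, macrophage and stellate markers was called on either diet. The part of these shifts in the results was not tested. Fewer cells of a type, less RNA per cell and lower levels of single marker genes cannot be told apart in bulk RNA. *Alb* was the largest part of the hepatocyte sum, at a mean of 106600 CPM in *Xbp1* fl/fl chow and 24140 in *Xbp1* LKO chow libraries. *Hnf4a* was at 860 and 814.5 CPM in the same groups. The second *Xbp1* LKO chow library had the lowest hepatocyte sum, and it was the higher of its group for 27 of the 36 genes tested, as the third *Xbp1* LKO HFS library was the highest of its group for 27 of 36.

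In *Xbp1* fl/fl hepatocytes on chow the 37 genes covered a wide range of levels per kb of transcript. *Cth*, the cystathionine gamma-lyase that makes cysteine, stood at 361 ± 47.0 CPM per kb (SD, n = 3), *Gpt2*, a mitochondrial alanine aminotransferase, at 197 ± 48.5 and *Shmt2*, the mitochondrial serine hydroxymethyltransferase, at 140.5 ± 33.0. *Cbs*, which starts transsulfuration, stood at 110.5 ± 3.89. The 20 synthetases lay between *Lars* at 9.60 ± 0.97 and *Nars* at 54.7 ± 2.51 CPM per kb, and the ranges of *Nars* (52.6 to 57.5) and *Aars* (48.7 to 57.9), the next in order, overlapped. Among the 8 genes under 0.5 CPM per kb were *Slc7a5* at 0.461 ± 0.258, *Psat1* at 0.323 ± 0.014, *Aldh1l2* at 0.0777 ± 0.0119, *Slc7a1* at 0.0231 ± 0.0205 and *Slc7a11* at 0.0020 ± 0.0035 CPM per kb. *Phgdh*, the first enzyme of serine synthesis, had 6 counts in the second *Xbp1* LKO chow library, 3 counts in the third *Xbp1* LKO HFS library and 0 in the other 9, and it was the 1 gene of the 37 that was too low to test. The transsulfuration pair, *Gpt2* and *Shmt2* were thus the most abundant transcripts of the set, and *Phgdh*, *Psat1*, *Aldh1l2*, the proline enzymes and the 3 *Slc7* carriers stood at its low end. *Slc7a11* and *Slc7a1* passed the filter on low counts only through *Xbp1* LKO libraries. For *Slc7a1* these were 2 chow and 2 HFS libraries, and for *Slc7a11* 0 chow and 2 HFS libraries. They are high in those groups, so their tests and every count or median that holds them are not independent of that filter. For *Slc7a11* this includes the effect of diet in *Xbp1* LKO hepatocytes. *Aldh18a1* also leaned on the *Xbp1* LKO groups. It was over the filter's cutoff in 1 *Xbp1* fl/fl HFS library, beside 1 *Xbp1* LKO chow and 3 *Xbp1* LKO HFS libraries. It stays in the counts and medians given without *Slc7a11* and *Slc7a1*, which are thus not free of the filter.

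**Figure D1:**
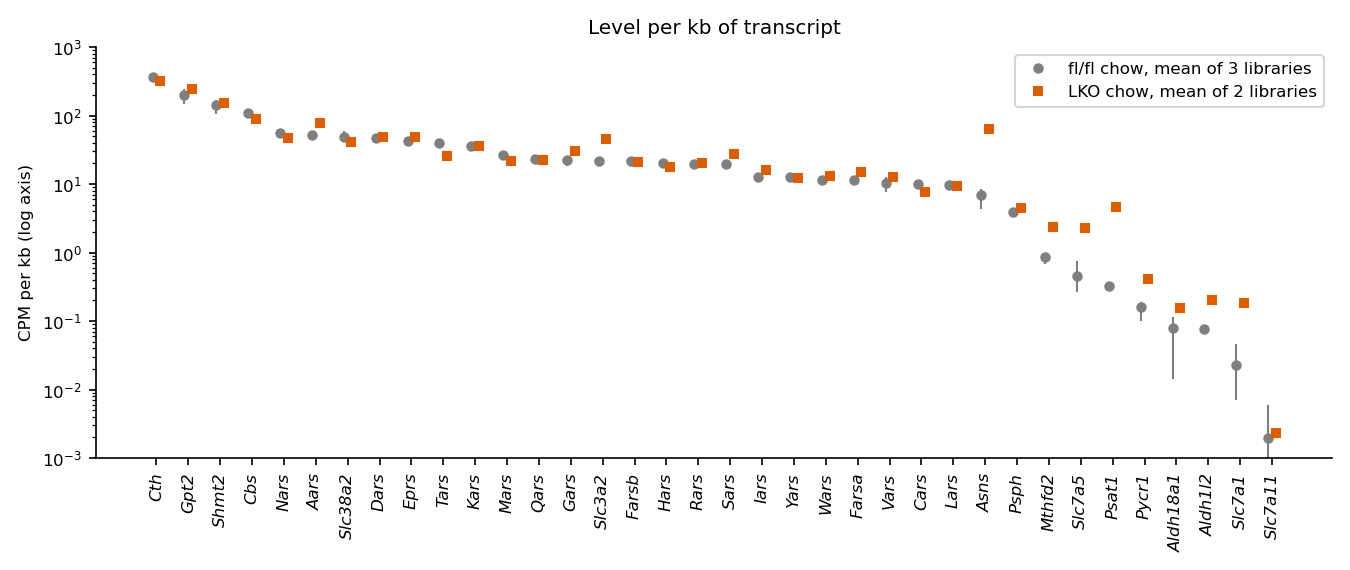
CPM per kb of transcript (log axis) in chow-fed *Xbp1* fl/fl (circles, mean of 3 libraries, line from lowest to highest) and *Xbp1* LKO hepatocytes (squares, mean of 2 libraries) for the 36 genes above 0 in *Xbp1* fl/fl, in order of level. A line that reaches the bottom axis ends at a library with 0 counts. *Asns* stands at 6.85 CPM per kb in *Xbp1* fl/fl and at 62.8 in *Xbp1* LKO libraries, where it is above each synthetase but *Aars*.

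On chow, 5 of the 36 genes tested were higher in *Xbp1* LKO than in *Xbp1* fl/fl hepatocytes and 1 was lower, by the quasi-likelihood test of edgeR with a threshold of 0.05 on the adjusted p. Over all 13303 genes tested, 1.73% were called higher and 3.02% lower. The 5 that rose were *Psat1* and *Asns*, which make serine and asparagine, and the transporters *Slc7a1*, *Slc7a5* and *Slc3a2*. The 1 that fell was *Tars*, the threonyl-tRNA synthetase. Split by role, 5 of the 16 tested genes that are no synthetase were called, all higher, against 1 of 20 synthetases. Without *Slc7a11* and *Slc7a1*, a choice made after the values were seen, 4 of 34 genes were called higher and 1 lower, and the 16 became 14 with 4 called. The median log2 fold change was 0.20 over the 36 genes, 1.02 over the 16, 0.03 over the 20 synthetases and 0.0024 over all genes tested. The 1.02 of the genes that are no synthetase moved to 0.30 with a filter at a mean of 1 CPM, which leaves 31 of the 36 genes, and to 0.51 without the second *Xbp1* LKO chow library.

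*Psat1*, phosphoserine aminotransferase (chr19:15904678-15947337 on GRCm38, minus strand), was at 0.883, 0.809 and 0.846 CPM in *Xbp1* fl/fl chow libraries and at 5.63 and 18.5 in *Xbp1* LKO chow libraries. The 3 controls, with low counts of 16, 14 and 17, all lay below both knockout libraries, with 132 and 424 counts. The second knockout library was far above the first. The log2 fold change was 3.83 ± 0.63 (SE), a 14.2-fold rise, with an adjusted p = 0.00742. In the same pathway *Psph*, which releases serine from phosphoserine, had a log2 fold change of 0.18 ± 0.23 (adjusted p = 0.724) and *Shmt2* one of 0.10 ± 0.18 (adjusted p = 0.819). *Mthfd2*, the mitochondrial folate dehydrogenase, was at 1.43, 2.02 and 1.99 CPM in controls and at 2.52 and 7.38 in knockouts, without overlap, and its log2 fold change of 1.44 ± 0.42 missed the threshold (adjusted p = 0.0748). *Aldh1l2*, a mitochondrial enzyme of formyl-folate, had a log2 fold change of 1.36 ± 0.64 (adjusted p = 0.273). Of the serine and folate genes *Psat1* had the largest log2 fold change on chow, while *Phgdh*, the step before it, had at most 6 counts.

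*Asns*, asparagine synthetase (chr6:7675169-7693254, minus strand), was at 15.4, 17.3 and 8.71 CPM in *Xbp1* fl/fl chow libraries and at 101 and 152 in *Xbp1* LKO chow libraries. Both knockout libraries stood well above all 3 controls, and the fold change was 9.18 (log2 3.20 ± 0.68, adjusted p = 0.0225). Its neighbours in the list did not pass: *Pycr1* and *Aldh18a1*, of proline synthesis, had log2 fold changes of 1.37 ± 0.68 and 0.97 ± 0.94 (adjusted p = 0.301 and 0.632) and *Gpt2* one of 0.30 ± 0.20 (adjusted p = 0.451).

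Of the 5 transporters, 3 were called higher on chow, and 2 of 3 without *Slc7a11* and *Slc7a1*. *Slc7a1*, a carrier of arginine and lysine, was at 0.331, 0.116 and 0.0498 CPM in *Xbp1* fl/fl chow libraries (6, 2 and 1 counts) and at 1.11 and 1.53 in *Xbp1* LKO chow libraries (26 and 35 counts). The log2 fold change was 2.97 ± 0.60 (adjusted p = 0.0179), from counts that were low in each library and in a gene kept only through its high group. *Slc7a5*, the LAT1 carrier of large neutral amino acids, was at 2.65, 0.925 and 1.29 CPM in controls and at 4.22 and 11.8 in knockouts (log2 fold change 2.30 ± 0.50, adjusted p = 0.0255). *Slc3a2*, the heavy chain that pairs with *Slc7a5* and *Slc7a11*, was at 39.8, 43.8 and 33.9 CPM in controls and at 63.4 and 102 in knockouts (log2 fold change 1.08 ± 0.25, adjusted p = 0.0321). For all 3 carriers the knockout libraries lay above the controls without overlap, as they did for 12 of the 36 members and for 15.4% of all genes tested. For 5 members, and for 15.9% of all genes, they lay below the controls. *Slc38a2*, a sodium-coupled carrier of neutral amino acids, had a log2 fold change of -0.26 ± 0.28 (adjusted p = 0.667), and *Slc7a11*, the cystine carrier, had at most 1 count in any chow library.

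*Tars* (chr15:11382301-11399665, minus strand) was at 151, 140 and 181 CPM in *Xbp1* fl/fl chow libraries and at 96.2 and 112.5 in *Xbp1* LKO chow libraries, with no overlap, and fell by 0.59 ± 0.14 on the log2 scale (adjusted p = 0.0367). The other 19 synthetases spread from a log2 fold change of -0.38 for *Cars* to 0.57 for *Aars*, and 8 of the 20 had an unadjusted p under 0.05, as did 19.3% of all genes tested. *Aars*, named after its values were seen, was at 333, 296 and 280 CPM in controls and at 368 and 528 in knockouts (adjusted p = 0.0616). *Sars* and *Gars*, for serine and glycine, lay on the side of *Aars*, with log2 fold changes of 0.51 ± 0.17 and 0.44 ± 0.16 (adjusted p = 0.114 and 0.159). *Sars*, also named after its values were seen, was at 65.1, 68.5 and 74.5 CPM in controls and at 80.4 and 118 in knockouts. *Tars* and *Aars* both hold the CARE letters shown above and lay at opposite ends of the synthetases. *Mars* overlaps the 3′ end of *Ddit3* on the other strand, and its log2 fold change was -0.29 ± 0.11 (adjusted p = 0.168).

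These calls leaned on single libraries. Without the second *Xbp1* LKO chow library, in a fit that takes the spread of the remaining one from the other groups, 0 of 36 genes passed (*Psat1* 2.72, *Asns* 2.87, *Slc7a1* 2.72, *Slc7a5* 1.38, *Slc3a2* 0.69 and *Tars* -0.71 on the log2 scale). Without the first, 9 genes passed, all higher. Without *Xbp1* fl/fl chow library 1, 2 or 3, the number was 3, 2 and 2. With library totals in place of TMM factors the median of all genes on chow moved to 0.33 on the log2 scale, the synthetases' median to 0.35, and 14 members were called higher, 7 of them synthetases, and 0 lower. DESeq2 called 1 synthetase higher on chow, *Aars*, and 2 lower, *Cars* and *Tars*. The synthetases' median stayed near that of all genes under both scalings, whereas the number of synthetases called, and the direction of those calls, depended on the scaling and on the tool.

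**Figure D2:**
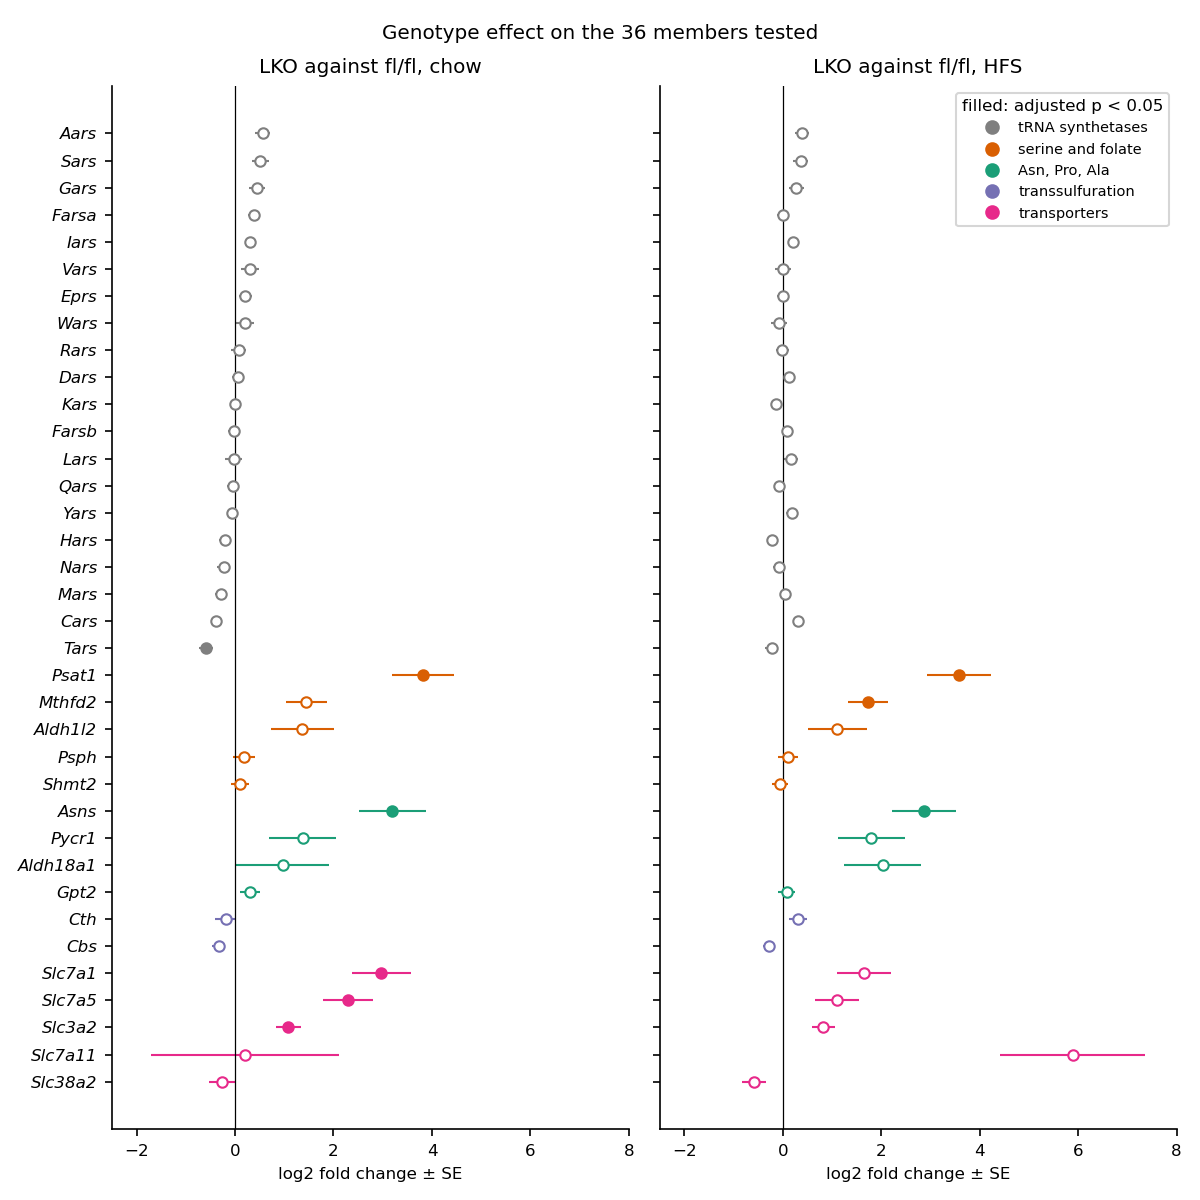
Log2 fold change with its SE for *Xbp1* LKO against *Xbp1* fl/fl hepatocytes on chow (left) and HFS (right), for the 36 genes tested, coloured by role, with filled circles where the adjusted p was under 0.05. The synthetases lie within -0.59 to 0.57 on chow and -0.23 to 0.40 on HFS, while *Psat1* and *Asns* lie at 2.87 or more on both diets.

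On HFS, 3 of the 36 genes were higher in *Xbp1* LKO hepatocytes and 0 were lower, beside 1.92% of all genes called higher and 2.16% lower. They were *Psat1*, *Asns* and *Mthfd2*, all enzymes, and 14 of the 36 had an unadjusted p under 0.05, as did 17.5% of all genes. None of the 20 synthetases passed in edgeR (3 at an unadjusted p under 0.05) or in DESeq2, whereas library totals in place of TMM factors, which moved the median of all genes to 0.27, called 5 synthetases higher, and a fit to the HFS libraries alone called *Aars*. The median log2 fold change was 0.14 over the 36 genes, 1.11 over the 16 that are no synthetase, 0.03 over the synthetases and 0.0083 over all genes.

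*Psat1* was at 0.429, 0.356 and 0.490 CPM in *Xbp1* fl/fl HFS libraries and at 2.12, 3.64 and 9.66 in *Xbp1* LKO HFS libraries. The controls had 9, 7 and 10 counts and the knockouts 52, 98 and 252. The groups did not overlap, and the log2 fold change was 3.58 ± 0.64 (adjusted p = 0.0114). *Asns* was at 5.57, 14.2 and 1.37 CPM in controls and at 23.6, 43.7 and 86.4 in knockouts, a log2 fold change of 2.87 ± 0.65 (adjusted p = 0.0334) between groups that both spread widely. *Mthfd2* was at 1.24, 1.27 and 0.637 CPM in controls and at 3.67, 2.90 and 3.91 in knockouts, where the 3 libraries lay close together, with a log2 fold change of 1.73 ± 0.40 (adjusted p = 0.0369).

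No transporter passed the threshold on HFS. All 5 had an unadjusted p under 0.05, as did 17.5% of all genes. The 5 hold *Slc7a11* and *Slc7a1*, which the filter kept only through *Xbp1* LKO libraries, and *Slc38a2*, which was lower in the knockouts. *Slc7a11* had 0 counts in each *Xbp1* fl/fl HFS library and 2, 11 and 13 counts in *Xbp1* LKO HFS libraries. Against a floor of 3 counts per library that is at least 2.24-fold higher, and its adjusted p was 0.0588. *Slc3a2* was at 41.5, 27.5 and 45.9 CPM in controls and at 53.4, 69.7 and 81.1 in knockouts (log2 fold change 0.83 ± 0.23, adjusted p = 0.0693). *Slc7a1* was at 0.191, 0.204 and 0.245 CPM in controls and at 0.367, 0.967 and 0.690 in knockouts (log2 fold change 1.64 ± 0.55, adjusted p = 0.133). *Slc7a5* was at 2.62, 3.77 and 1.67 CPM in controls and at 4.44, 5.62 and 7.25 in knockouts (log2 fold change 1.10 ± 0.44, adjusted p = 0.222). In these 4 carriers, *Slc7a11* and *Slc7a1* with their dependence on the filter among them, every knockout library was above every control. That held for 12 of the 36 members and for 13.6% of all genes. In 3 members, and in 12.5% of all genes, every knockout library was below. In *Slc38a2* the log2 fold change was negative, at -0.58 ± 0.25 (adjusted p = 0.253). *Pycr1* and *Aldh18a1* had log2 fold changes of 1.80 ± 0.68 and 2.03 ± 0.79 (adjusted p = 0.188 and 0.204). The median of the 16 genes, 1.11, was 0.97 without *Slc7a11* and *Slc7a1*, 0.32 with the filter at a mean of 1 CPM, 0.68 without the third *Xbp1* LKO HFS library and 1.11 with *Slc7a11* at its bound.

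The HFS calls also depended on single libraries. The count was 0 without *Xbp1* fl/fl HFS library 1 or 3, 1 without *Xbp1* fl/fl HFS library 2 (*Asns*), 1 without *Xbp1* LKO HFS library 2 or 3 (*Psat1*), and 5 without *Xbp1* LKO HFS library 1. *Psat1* had an adjusted p of at most 0.0534 and a log2 fold change of at least 2.75 over the 11 fits that leave out 1 library each.

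**Figure D3:**
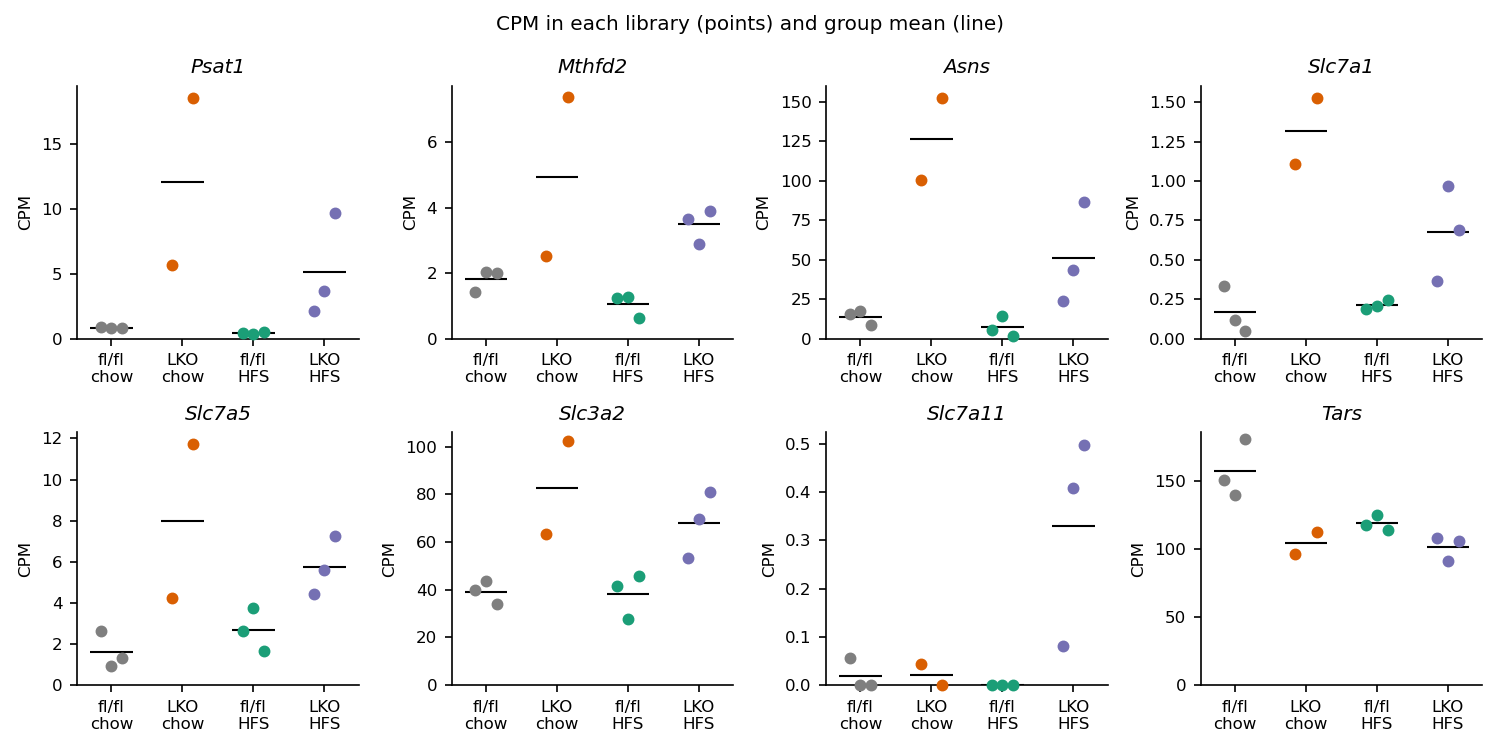
CPM (linear axes from 0) in each library, as points, with the group mean as a line, for the 7 genes called in a genotype comparison and for *Slc7a11*. In *Psat1*, *Mthfd2*, *Asns*, *Slc7a1*, *Slc7a5* and *Slc3a2* every *Xbp1* LKO library lies above every *Xbp1* fl/fl library of its diet, and in *Tars* below.

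The chow and HFS comparisons use separate animals, and their difference was tested as a genotype by diet interaction. It called 0 of the 13303 genes (0.0%) and 0 of the 36 members in edgeR, with 816 genes and 3 members, *Cars*, *Mars* and *Farsa*, at an unadjusted p under 0.05 (6.13% of all genes), and DESeq2 called 29 genes, of which 1 member, *Cars*. For the carriers called on chow and not on HFS the interaction was -1.33 ± 0.85 (*Slc7a1*, adjusted p = 0.864), -1.19 ± 0.67 (*Slc7a5*, 0.830) and -0.25 ± 0.34 (*Slc3a2*, 0.932) on the log2 scale, so a smaller effect on HFS was not shown.

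The roles can be followed library by library as the mean of the centred log2 CPM of their genes. The synthetase score was 0.03 ± 0.03 (SD, n = 3) in *Xbp1* fl/fl chow, 0.09 ± 0.17 (n = 2) in *Xbp1* LKO chow, -0.08 ± 0.05 (n = 3) in *Xbp1* fl/fl HFS and -0.01 ± 0.10 (n = 3) in *Xbp1* LKO HFS libraries. The genotypes did not separate on either diet: the *Xbp1* LKO chow libraries lay on both sides of the controls, the first at -0.03 and the second at 0.21. The 5 serine and folate genes scored -0.32 ± 0.12, 0.90 ± 0.69, -0.71 ± 0.18 and 0.42 ± 0.48 in the same order of groups, and no *Xbp1* LKO library fell within the *Xbp1* fl/fl range of its diet. The 5 transporters scored -0.55 ± 0.33, 0.57 ± 0.23, -0.37 ± 0.04 and 0.55 ± 0.32, again with no overlap within a diet. Without *Slc7a11* and *Slc7a1*, which the filter kept for their high *Xbp1* LKO values, the other 3 scored -0.43 ± 0.18, 0.56 ± 0.42, -0.19 ± 0.11 and 0.25 ± 0.03, and the genotypes did not overlap either. *Cth* and *Cbs* ran the other way on chow, at 0.38 ± 0.11 in *Xbp1* fl/fl and 0.12 ± 0.12 in *Xbp1* LKO libraries, where *Cbs* had a log2 fold change of -0.33 ± 0.13 (adjusted p = 0.193).

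**Figure D4:**
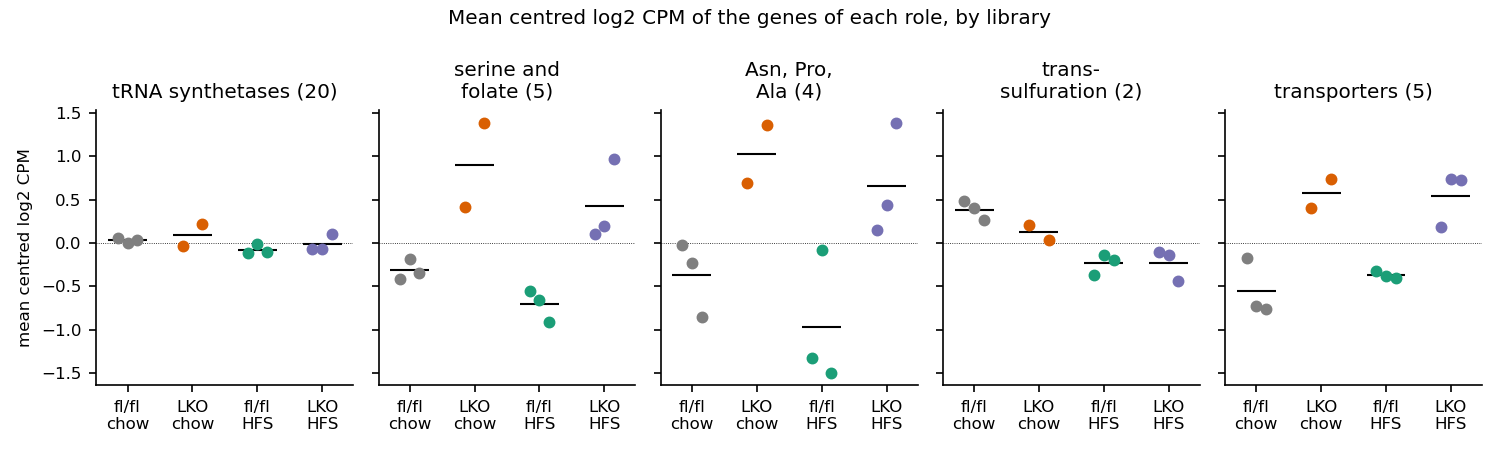
Mean centred log2 CPM of the genes of each role (number of genes in brackets) in each library, as points, with the group mean as a line. The synthetase scores stay between -0.12 and 0.21, while the serine and folate, the asparagine, proline and alanine, and the transporter scores of *Xbp1* LKO libraries lie above those of *Xbp1* fl/fl libraries on each diet and the transsulfuration scores do not.

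HFS feeding moved none of the 36 genes past the threshold in either genotype, beside 0.428% of all genes called in *Xbp1* fl/fl and 0.0601% in *Xbp1* LKO hepatocytes. In edgeR 5 of 36 members had an unadjusted p under 0.05 in each genotype, against 8.95% of all genes in *Xbp1* fl/fl and 12.7% in *Xbp1* LKO hepatocytes, and DESeq2 called 2, *Cth* and *Cars*, in *Xbp1* fl/fl and 0 in *Xbp1* LKO hepatocytes. The log2 fold change was negative for 30 of 36 genes in *Xbp1* fl/fl and for 29 of 36 in *Xbp1* LKO hepatocytes, with medians of -0.12 and -0.24 against -0.0056 and -0.0027 for all genes. Without the second *Xbp1* LKO chow library the median in *Xbp1* LKO hepatocytes was 0.01. The part of other cell types in these values was not tested, and their markers also differed in level between diets. In *Xbp1* LKO hepatocytes all 10 endothelial, all 10 macrophage and all 8 tested stellate markers had a positive log2 fold change with HFS (medians 1.55, 1.31 and 2.27), 10, 4 and 6 of them at an unadjusted p under 0.05 and none called. Their sums were 29.1 to 37.2, 18.1 to 27.7 and 8.96 to 9.44 CPM on chow and 75.1 to 127, 46.2 to 82.0 and 29.1 to 61.2 on HFS. In *Xbp1* fl/fl hepatocytes all 10 endothelial, 6 of 10 macrophage and all 8 stellate markers were positive (medians 0.77, 0.12 and 0.49), none called.

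*Cth* (chr3:157894248-157925077, minus strand) was at 719, 687 and 558 CPM in *Xbp1* fl/fl chow libraries and at 308, 342 and 366 in *Xbp1* fl/fl HFS libraries. The groups did not overlap, and the log2 fold change was -0.95 ± 0.19 with an adjusted p = 0.0626. Over 19 alternatives its adjusted p ran from 2.09e-05 to 0.256, and it passed in 5. In *Xbp1* LKO hepatocytes *Cth* was at 648 and 498 CPM on chow and at 464, 482 and 310 on HFS (log2 fold change -0.45 ± 0.20, adjusted p = 0.388). *Tars* was at 117, 125 and 114 CPM in *Xbp1* fl/fl HFS libraries, below each chow library (log2 fold change -0.40 ± 0.12, adjusted p = 0.313), and at 108, 90.9 and 106 in *Xbp1* LKO HFS libraries, which lay below each of the controls on the same diet (adjusted p = 0.400).

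*Farsa*, the catalytic subunit of phenylalanyl-tRNA synthetase, was at 23.7 and 30.7 CPM in *Xbp1* LKO chow libraries and at 19.7, 20.2 and 21.2 in *Xbp1* LKO HFS libraries (log2 fold change -0.42 ± 0.12, adjusted p = 0.240). Its partner *Farsb* had a log2 fold change of 0.07 ± 0.12 in the same comparison (adjusted p = 0.835). *Slc7a11* had 26 counts over the 3 *Xbp1* LKO HFS libraries and 1 over the 2 *Xbp1* LKO chow libraries, a ratio of 15.5 with a 95% exact interval of counting error from 2.55 to 637 (adjusted p = 0.292). That interval pools the libraries of a group and leaves out the spread between them. The gene passed the filter only through *Xbp1* LKO HFS libraries, the higher group here, so this comparison is not independent of the filter. *Cars*, the cysteinyl-tRNA synthetase, had the second smallest unadjusted p of the members in both genotypes, with opposite signs. Its log2 fold change with HFS was 0.29 ± 0.10 in *Xbp1* LKO (adjusted p = 0.283) and -0.40 ± 0.09 in *Xbp1* fl/fl hepatocytes (adjusted p = 0.116).

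**Figure D5:**
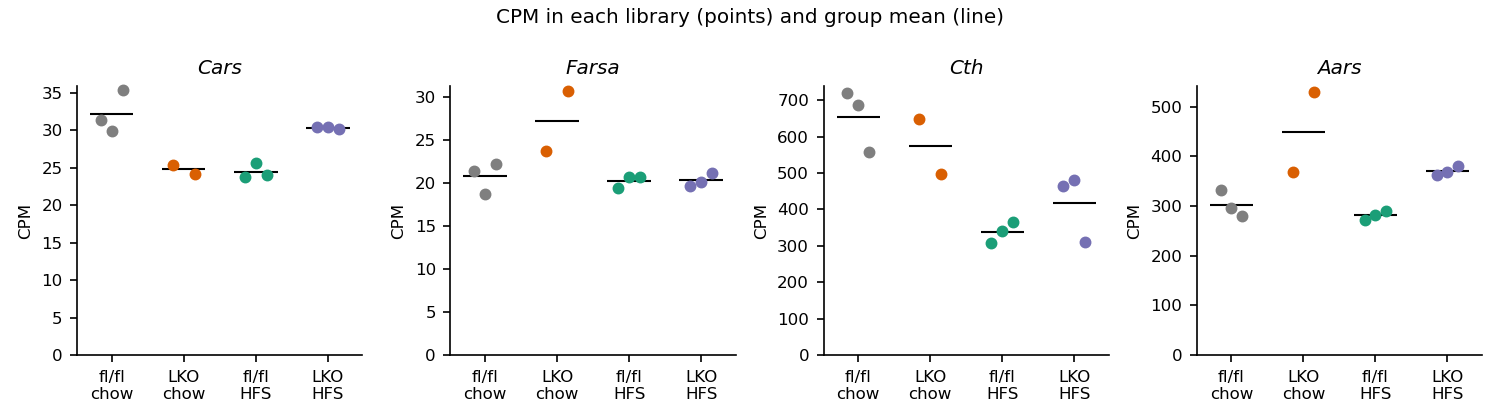
CPM (linear axes from 0) in each library, as points, with the group mean as a line, for the genes with the smallest unadjusted p with HFS feeding and for *Aars*. *Cth* lies at 558 CPM or more on chow and at 366 CPM or less on HFS in *Xbp1* fl/fl libraries, with an adjusted p = 0.0626, and *Cars* is lower in *Xbp1* LKO than in *Xbp1* fl/fl libraries on chow and higher on HFS.

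Genes around the members are given by the lists they belong to, for genotype on chow and then on HFS. Over all genes tested, 4.75% and 4.08% were called in these comparisons, in either direction. Of 17 mitochondrial synthetases, 0 and 1 passed: *Mars2*, the mitochondrial methionyl-tRNA synthetase, at 4.29, 4.79 and 3.97 CPM in *Xbp1* fl/fl HFS and 6.68, 7.66 and 6.94 in *Xbp1* LKO HFS libraries (log2 fold change 0.71 ± 0.16, adjusted p = 0.0312). Of the 3 scaffold genes of the synthetase complex, 0 passed on either diet. The eIF2α kinases, subunit and phosphatases gave 1 of 7 on each diet, *Ppp1r15b*, the constitutive regulator that removes the phosphate from eIF2α, which fell by 0.83 ± 0.14 and 0.78 ± 0.12 on the log2 scale (adjusted p = 0.00742 and 0.00537).

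Of 16 tested genes of the ATF4 branch, 5 and 3 passed, all higher, beside 1.73% and 1.92% of all genes called higher. The log2 fold change was negative for 2 of the 16 on chow and for 4 on HFS. On HFS *Chac1* and *Ddit4*, named after their values were seen, had every knockout library below every control, without a call, as did 12.5% of all genes, called or not. Their mean CPM was 13.8 and 7.51 in *Xbp1* fl/fl HFS and 7.25 and 3.16 in *Xbp1* LKO HFS libraries. *Nupr1*, *Atf3* and *Ddit3*, which encodes CHOP, had log2 fold changes of 6.62 ± 0.93, 4.80 ± 0.72 and 3.77 ± 0.66 on chow and of 5.89 ± 0.97, 3.09 ± 0.69 and 2.50 ± 0.62 on HFS. *Trib3* rose on chow (2.19 ± 0.47, adjusted p = 0.0234) and had a log2 fold change of 1.19 ± 0.43 on HFS (adjusted p = 0.167). In the first and second *Xbp1* LKO chow libraries *Nupr1* was at 10.45 and 47.3 CPM and *Atf3* at 6.53 and 43.0. *Ddit3* was at 23.6 and 132.5 CPM there and *Trib3* at 31.1 and 117, so the second library was far above the first in each of them. *Atf4* itself was at 94.3, 84.5 and 93.1 CPM in *Xbp1* fl/fl chow and 95.8 and 104 in *Xbp1* LKO chow libraries (log2 fold change 0.14 ± 0.11, adjusted p = 0.544), and at 0.18 ± 0.10 on HFS (adjusted p = 0.399). The level of ATF4 protein is not measured by these counts.

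Other amino acid transporters of liver gave 4 and 3 of 12, all higher, beside 1.73% and 1.92% of all genes called higher. On each diet 6 of the 12 had a positive and 6 a negative log2 fold change, with medians of 0.01 and 0.02. *Slc38a4* and *Slc7a2*, named after their values were seen, were lower in every knockout library than in every control on both diets, without a call. Such separation held for 15.9% of all genes on chow and 12.5% on HFS, and the share with it on both diets was not counted. Mean CPM of *Slc38a4* was 2044 in *Xbp1* fl/fl and 1399 in *Xbp1* LKO on chow, and 2019 and 1363 on HFS. *Slc1a5*, a glutamine carrier, and *Slc1a4*, a carrier of alanine, serine and cysteine, had log2 fold changes of 3.10 ± 0.67 and 1.77 ± 0.42 on chow and of 2.72 ± 0.68 and 2.03 ± 0.38 on HFS. *Slc1a2*, a glutamate carrier, rose by 2.83 ± 0.31 and 1.92 ± 0.29, and *Slc16a10*, a carrier of aromatic amino acids, by 1.19 ± 0.18 on chow (adjusted p = 0.00557). *Glul*, glutamine synthetase, was at 390, 183 and 243 CPM in *Xbp1* fl/fl chow and at 1800 and 2956 in *Xbp1* LKO chow libraries, a rise of 3.13 ± 0.30 (adjusted p = 0.00133), and rose by 2.74 ± 0.28 on HFS (adjusted p = 0.00138). *Glul* and *Slc1a2* are known as genes of hepatocytes around the central vein.

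Several further genes of these lists fell. *Sds* and *Sdsl*, which degrade serine and threonine, fell by 2.86 ± 0.58 and 2.73 ± 0.42 on chow and by 2.51 ± 0.49 and 1.93 ± 0.35 on HFS. *Gldc*, of glycine cleavage, fell on chow (-1.31 ± 0.31, adjusted p = 0.0371). *Aspg*, which degrades asparagine, fell by 1.73 ± 0.35 on chow and by 1.24 ± 0.30 on HFS (adjusted p = 0.0178 and 0.0421), and *Gls2*, the liver glutaminase, fell by 2.04 ± 0.46 on chow (adjusted p = 0.0293). In counts, 3 of 13 folate, glycine and serine genes fell on chow and 2 on HFS, and of 12 further genes of asparagine, proline and glutamate metabolism 1 rose and 2 fell on chow and 1 rose and 1 fell on HFS. Genes of the same lists that break down amino acids and did not pass include *Prodh*, of proline oxidation, at 0.73 ± 0.20 on chow (adjusted p = 0.0678), and *Glud1*, glutamate dehydrogenase, at 0.50 ± 0.15 on HFS (adjusted p = 0.0899), both named after their values were seen. The serine and asparagine steps held genes in both directions: *Psat1* and *Asns* higher, and *Sds*, *Sdsl* and *Aspg* lower, in *Xbp1* LKO hepatocytes on each diet.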

How the data were processed

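RNA-Seq counts of 11 hepatocyte libraries were analysed. The values the authors deposited are raw counts, 1 whole number for each Ensembl gene. The paper names kallisto and tximport, and a stranded mRNA kit. The submitters' processing notes name cutadapt 1.13, STAR, HTSeq 0.6.1p1, DESeq2 and mm10, and the labels a total RNA kit, so which tool made the counts is not settled, nor whether strand was used. The paper gives 3 chow libraries per genotype, and 2 *Xbp1* LKO chow libraries were analysed here. Of 54232 identifiers, 54165 were in GENCODE M21 (GRCm38), which gave symbols, positions and the length of the principal transcript.

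Low genes were removed with filterByExpr at a minimum count of 10. TMM factors (0.878 to 0.938 in *Xbp1* fl/fl, 1.05 to 1.19 in *Xbp1* LKO libraries), CPM and the quasi-likelihood fit of the 4 groups over all 11 libraries came from edgeR 4.0.16 (R 4.3.3). Benjamini-Hochberg adjustment ran over all 13303 genes, with a threshold of 0.05. For library scores 2 was the prior count of the log2 CPM. A chi-square between replicates, divided by its degrees of freedom, was 28.0 to 102, where counting error alone gives about 1, so no 2 libraries were taken as one. Alternatives were DESeq2 1.42.0, other scalings and filters, fits to the groups compared, replicate blocks and leaving out each library. On simulated data with 200 genes changed by 2 on the log2 scale, 78.5% were recovered for genotype on chow over 13003 genes, and 83.0% on HFS. Beside them 12 unchanged genes were called on chow and 5 on HFS. Smaller changes, such as those of the synthetases, were not simulated.

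Values in every library were given for members past the threshold in a pairwise comparison and for the 3 members lowest in unadjusted p there, with exceptions marked in the text. Genes outside the set were named if called in a genotype comparison, at most 4 per list, with *Xbp1* and *Atf4*. Those marked as named after their values were seen are exceptions. The members and lists were chosen with earlier results of these data known.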

Additional observations from a re-analysis of the deposited data

Results flagged for a closer look

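*Cars* stood out because its genotype effect had opposite signs on the 2 diets with no overlap on either. It was at 31.3, 29.9 and 35.4 CPM in *Xbp1* fl/fl chow libraries and at 25.4 and 24.2 in *Xbp1* LKO chow libraries. On HFS the 3 *Xbp1* fl/fl libraries lay between 23.8 and 25.6 CPM and the 3 *Xbp1* LKO libraries between 30.1 and 30.5. The genotype effect was -0.38 ± 0.10 on chow (adjusted p = 0.0588) and 0.31 ± 0.09 on HFS (adjusted p = 0.0803) on the log2 scale. The difference between them, tested as the interaction, was 0.69 ± 0.14, with an adjusted p = 0.603 in edgeR, where 0 of 13303 genes passed. DESeq2 gave 0.69 with an adjusted p = 0.0234, and over 18 alternatives the adjusted p ran from 0.0234 to 0.983, with 1 past the threshold. No other member of the 37 showed this pattern of separation. On chow alone 15.9% of all genes had every knockout library below every control, and on HFS alone 13.6% had every knockout library above. The share of all genes with opposite separation on the 2 diets was not counted, so the pattern is not shown to be rare.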

How the results depend on the processing

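The alternatives changed 1 choice each, apart from DESeq2, which brings its own size factors, and the fits on fewer libraries, where the filter kept other genes. Among the members, DESeq2 called 10 for genotype on chow, 2 for HFS in *Xbp1* fl/fl hepatocytes and 1 for the interaction. Library totals called 14, 10 and 1 for genotype on chow, genotype on HFS and HFS in *Xbp1* fl/fl hepatocytes. Without the filter 9 were called for genotype on HFS and 2 for HFS in each genotype. Without the 2 members that passed the filter only through *Xbp1* LKO libraries, chosen after seeing the data, 5 were called for genotype on chow and 3 on HFS. With only the groups compared the count was 2 on chow and 1 for HFS in *Xbp1* fl/fl hepatocytes. Leaving out 1 library gave 0 to 9 members for genotype on chow, 0 to 5 on HFS, 0 to 1 for HFS in *Xbp1* fl/fl and 0 to 0 for HFS in *Xbp1* LKO hepatocytes and for the interaction.

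Over all genes, DESeq2 called 1130, 1007, 181, 213 and 29 genes for genotype on chow, genotype on HFS, HFS in *Xbp1* fl/fl, HFS in *Xbp1* LKO and the interaction. The same counts without the filter were 1507, 1438, 499, 722 and 269. Library totals gave 3000 and 1483 for the genotype comparisons, of which 10.5% and 13.1% were lower, against 63.6% and 52.9% with TMM factors. With only the groups compared there were 233 for genotype on chow and 0 for HFS in *Xbp1* LKO hepatocytes. Leaving out 1 library gave 69 to 762, 184 to 662, 6 to 59, 0 to 36 and 0 to 0.

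The replicate numbers of the titles are shared between groups of different animals. Same-numbered libraries deviated from their group means with correlations of -0.20 to 0.23 over 15 pairs of libraries, 4 of them over 0.1. Differently numbered pairs were not compared, so these correlations cannot decide whether the numbers pair the libraries. With the replicate number as a block, 3 members were called for genotype on chow (*Psat1*, *Asns* and *Slc7a1*) and 2 on HFS (*Psat1* and *Asns*), and 19 genes for HFS in *Xbp1* LKO hepatocytes. With the second *Xbp1* LKO chow library numbered 3, as its file is, the block gave 3, 2 and 53. The members called, and those given for the smallest p with diet, kept their direction under every alternative that gave them a value. *Psat1* passed in 18 of 19 alternatives on chow and 16 of 19 on HFS, *Asns* in 15 and 14, *Slc7a1* in 15 of 18, *Slc7a5* in 13, *Slc3a2* in 12 and *Tars* in 7 of 19 on chow, and *Mthfd2* in 10 of 19 on HFS. The chow comparison rests on 2 *Xbp1* LKO libraries, which sets its precision.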
